A study of Mus musculus with 48 samples.

Results

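The core circadian clock of the jejunal epithelium was followed in 10 genes, Arntl, Clock, Npas2, Nr1d1, Nr1d2, Dbp, Per1, Per2, Per3 and Cry1. They were taken as all probes of the array that are annotated to these names, which gave 17 probes, 14 of them with a value on every array. Values on every array were available for 9 of the 10 genes, among 13065 genes tested in all. Npas2 has 1 probe, with values on 44 of 48 arrays, and is reported over the 20 animal pairs in which both arrays hold a value. The mice were female C57BL/6 and received by gavage either sesame oil vehicle or TCDD at 1 of 8 doses. The lower doses were 0.01, 0.03, 0.1 and 0.3 µg/kg, the higher ones 1, 3, 10 and 30 µg/kg. Dosing was every 4 days over 28 days, although the same label also calls it daily, and neither the animals' age nor the hour of killing is given in the sources used here. TCDD is a dioxin that activates the aryl hydrocarbon receptor, a transcription factor of the same protein family as CLOCK and ARNTL. Each dose had 3 treated animals, each compared on 2 dye-swapped arrays with 1 of only 3 vehicle animals, which are shared by all doses. A pair's value is the mean of its 2 arrays, on a log2 scale, treated over vehicle. The base and the sign of the deposited ratios are not stated, and the sign was read from Cyp1a1, the classical TCDD-induced gene, which was above 0 on 12 of 12 arrays at 10 and 30 µg/kg.

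The clock is a transcriptional feedback loop. ARNTL, also called BMAL1, pairs with CLOCK or its close relative NPAS2 and drives genes that carry E-box elements, among them the Per and Cry genes, Nr1d1, Nr1d2 and Dbp. PER and CRY proteins return to repress that pair. NR1D1 and NR1D2, the nuclear receptors REV-ERB alpha and beta, repress Arntl, Clock, Npas2, Cry1 and Nfil3 through elements that they share with the activating ROR receptors. DBP activates D-box genes such as the Per genes, and NFIL3 represses them. Over the day, Arntl and Npas2 are therefore high when Nr1d1, Nr1d2 and Dbp are low, with the Per genes trailing Dbp and Cry1 later still. Peripheral clocks such as that of the gut are also set by feeding.

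Promoter sequence shows which of these elements lie close to the start sites. Windows of 300 bases, 250 before and 50 after a start, were read from RefSeq on GRCm38.p6, which held 13 start sites of 9 of the 10 genes. Per2 has no entry. The E-box was searched as CACGTG, the D-box as TTATGTAA or TTACGTAA, and the core of the ROR element as TAGGTCA, each on both strands. None of these overlaps another in the windows printed here. An E-box was found in 2 of the 13 windows, 1 of Per1 and 1 of Cry1, against 7.17% of 32544 different promoter windows of this length. A D-box was found in 1 of 13, that of Per3, against 1.05%, and the ROR core in 1 of 13, a window of Arntl, against 2.61%. The 4 windows with a match are printed because they hold the letters of an element of the loop described above, with the matches in capitals.
Arntl (second listed start, chr7:113207261-113207560, + strand): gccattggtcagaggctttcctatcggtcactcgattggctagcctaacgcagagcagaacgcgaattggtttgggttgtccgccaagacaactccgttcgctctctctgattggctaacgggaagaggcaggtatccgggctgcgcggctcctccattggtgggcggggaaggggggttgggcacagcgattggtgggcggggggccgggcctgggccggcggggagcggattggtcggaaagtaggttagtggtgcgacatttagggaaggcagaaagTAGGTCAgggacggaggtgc
Per1 (first listed start, chr11:69098699-69098998, + strand): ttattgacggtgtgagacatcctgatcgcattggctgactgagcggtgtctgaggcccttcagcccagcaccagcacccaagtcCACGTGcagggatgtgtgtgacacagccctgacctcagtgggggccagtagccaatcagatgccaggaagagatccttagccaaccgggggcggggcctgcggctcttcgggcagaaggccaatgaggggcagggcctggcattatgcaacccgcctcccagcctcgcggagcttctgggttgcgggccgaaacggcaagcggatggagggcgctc
Per3 (chr4:151044616-151044915, - strand): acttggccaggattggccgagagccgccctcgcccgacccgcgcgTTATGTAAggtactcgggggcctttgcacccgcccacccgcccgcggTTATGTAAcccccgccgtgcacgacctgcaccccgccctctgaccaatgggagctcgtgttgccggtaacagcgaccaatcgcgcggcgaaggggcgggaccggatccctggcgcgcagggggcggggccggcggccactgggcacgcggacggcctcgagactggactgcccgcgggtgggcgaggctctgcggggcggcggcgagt
Cry1 (chr10:85185005-85185304, - strand): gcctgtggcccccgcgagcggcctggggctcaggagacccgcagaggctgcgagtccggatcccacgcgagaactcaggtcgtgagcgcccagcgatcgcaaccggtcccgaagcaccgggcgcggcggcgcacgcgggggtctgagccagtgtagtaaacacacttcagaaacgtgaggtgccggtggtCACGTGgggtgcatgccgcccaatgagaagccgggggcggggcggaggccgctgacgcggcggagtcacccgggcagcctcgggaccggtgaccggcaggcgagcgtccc
The ROR core of Arntl begins 30 bases after the start, and the E-boxes of Per1 and Cry1 begin 166 and 60 bases before it. The D-boxes of Per3 begin 205 and 158 bases before its start. The core letters of the dioxin response element, GCGTG, which the aryl hydrocarbon receptor binds with its partner ARNT, were found in 9 of the 13 windows, which belong to 8 of the 9 genes, and in 32.6% of all windows. Such matches are descriptions of letters, and none was tested as a site.

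How well a member could be measured was read from its dye swaps. Across the 24 pairs, the 2 arrays of a pair correlated with r = 0.96 for the probe of Per3, 0.91 for Nr1d2, 0.85 for Arntl, 0.84 for Per1, 0.82 for Cry1 and 0.75 for Dbp. The median over all 17836 probes was 0.28, and 14.6% were above 0.7. Genes with several probes were less uniform. One probe of Nr1d1 reached 0.88 and the other probes 0.13 and 0.01. The probes of Per2 stood at 0.87 and -0.54, and the complete probes of Clock at 0.73, 0.15 and -0.40. The gene values of Nr1d1, Per2 and Clock are means over these probes. The values of the repeatable probe at 10 and 30 µg/kg are given beside them, a choice made after the values were seen. Npas2 reached 0.37. The files hold no intensities, so neither the level of a clock gene nor the enterocyte identity of the tissue can be read, only ratios. In such bulk samples, fewer cells of a type and less RNA per cell cannot be told apart. No clock probe carries the value that 203 to 335 probes share on each array. The 30 µg/kg pairs of replicates 1 and 3 hold pancreas transcripts. The median log2 ratio of 11 measured exocrine pancreas markers was 3.00 and 0.93 there, against -0.01 in replicate 2. At lower doses the same median was 2.53 at 0.03 µg/kg and 1.49 at 0.1 µg/kg in replicate 2. It was 1.18 at 0.3 µg/kg in replicate 3 and 2.02 at 1 µg/kg in replicate 1. Where pancreas pairs are left out below, only the 2 at 30 µg/kg are meant, and the others stay in.

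One animal stands apart and is named before any result. In the 0.3 µg/kg animal of replicate 2, the clock genes were displaced together, in opposite directions for the opposed arms. The log2 ratio of Arntl was 1.73, where the other 7 animals set against the same vehicle animal lay between -0.03 and 0.24. Nr1d2 stood at -3.18, the lowest ratio of all 13065 genes in that pair, where the other 7 lay between -0.48 and 0.41. The main results below that rest on this animal are given with and without it. The standard errors and adjusted p-values of the dose means include it unless stated.

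**Figure D1:**
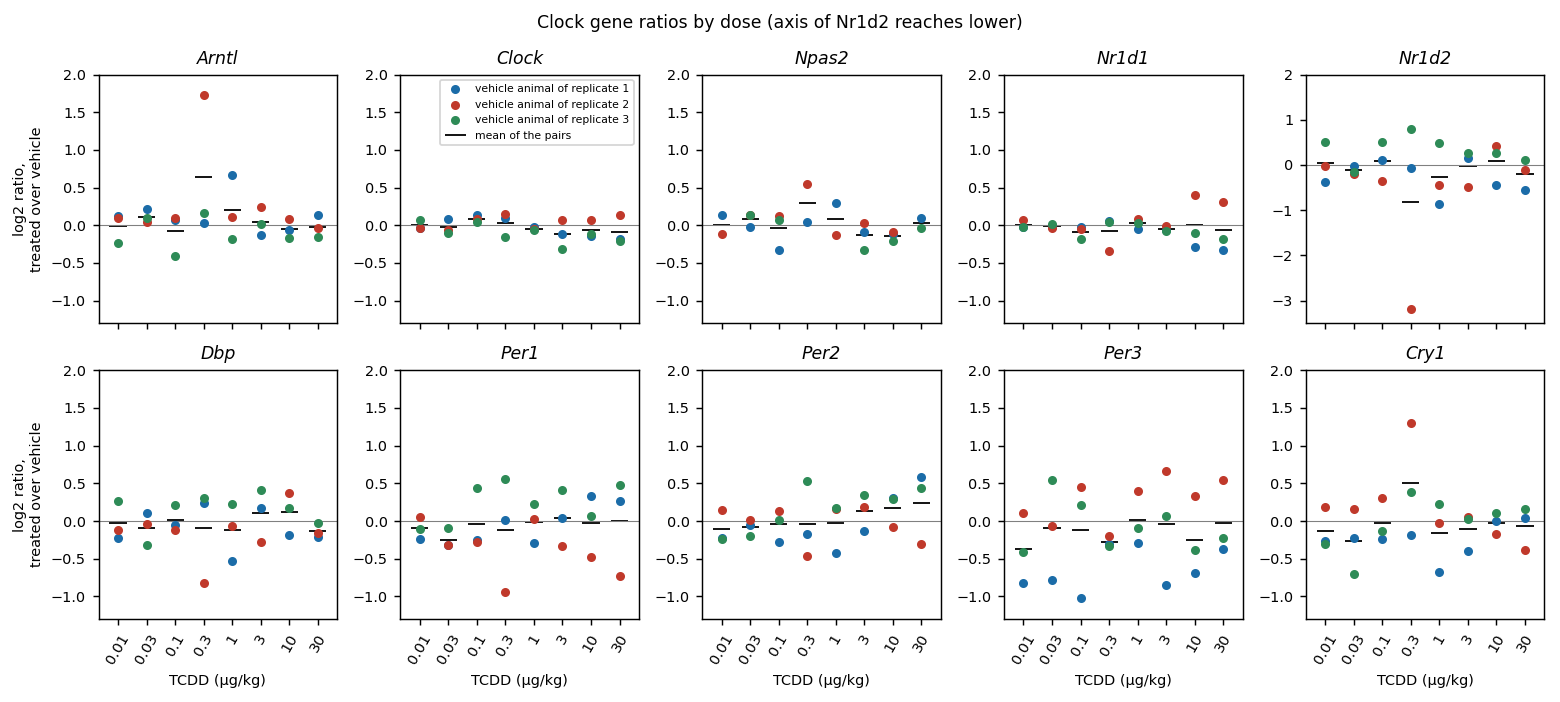
Log2 ratio (vertical axis) of each clock gene against TCDD dose in µg/kg (horizontal axis), 1 point per animal pair coloured by the vehicle animal and a bar at the mean. Apart from 0.3 µg/kg the means lie between -0.38 and 0.24, and the points farthest from 0 for Arntl (1.73), Nr1d2 (-3.18) and Cry1 (1.30) belong to 1 animal at 0.3 µg/kg.

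No measured clock gene differed from vehicle at any of the 8 doses by the test used (0 of 9 called, limma, Benjamini-Hochberg adjusted p under 0.05 over all 13065 genes). The background was as low at most doses, with 0% of genes called at 0.01, 0.03, 1 and 3 µg/kg, 0.0306% at 0.1, 0.138% at 0.3, 0.214% at 10 and 2.17% at 30 µg/kg. At an unadjusted limma p under 0.05, 2 of 9 members, Arntl and Cry1, passed at 0.3 µg/kg, where 9.74% of all genes did. At each other dose 0 passed, where the share of all genes ran from 2.17% at 0.01 µg/kg to 16.2% at 30 µg/kg. Without the animal that stands apart, the limma p at 0.3 µg/kg was 0.538 for Arntl and 0.626 for Cry1. No member had a called slope on log10 dose (0 of 9, against 0.589% of all genes) or a called difference among the doses (0 of 9, against 0.276%). At 30 µg/kg the means of the 9 members had a median of -0.06, beside 0.01 for all genes. The standard error of a dose mean was 0.07 for Clock, 0.11 for Nr1d1, 0.17 for Per2, 0.18 for Dbp and 0.21 for Arntl and Cry1. It was 0.24 for Per1, 0.30 for Per3 and 0.45 for Nr1d2. It comes from 1 spread over all doses that includes the animal that stands apart. Without that animal it was 0.15 for Arntl, 0.21 for Cry1 and 0.29 for Nr1d2, over the 2 pairs left at 0.3 µg/kg. With that animal, means at 0.3 µg/kg of 0.64 for Arntl, 0.50 for Cry1 and -0.82 for Nr1d2 were not called. Small changes were not detectable with 3 animals a dose, and changes of the size of these means could also go uncalled.

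Among the activators, Arntl stood at -0.06, 0.09 and -0.17 in replicates 1, 2 and 3 at 10 µg/kg and at 0.13, -0.03 and -0.15 at 30 µg/kg. These values lie on both sides of 0 at both doses. At the 6 lower doses its 18 pairs ran from -0.41 through a median of 0.09 to 1.73. Its mean at 0.3 µg/kg was 0.64 ± 0.95 (SD, n = 3; limma adjusted p = 0.297), and 0.09 in the 2 pairs left without the animal that stands apart (adjusted p = 0.842). Clock, the partner of ARNTL, was at -0.14, 0.07 and -0.12 at 10 µg/kg and at -0.19, 0.14 and -0.21 at 30 µg/kg. Its repeatable probe gave -0.17, 0.08 and -0.13, and then -0.14, 0.20 and -0.30. Replicate 2 is the one above 0 at both doses. Clock lay between -0.32 and 0.15 elsewhere, and its slope was -0.03 ± 0.02 (SE) per log10 unit of dose. Npas2, which can take the place of CLOCK, was at -0.11, -0.09 and -0.21 at 10 µg/kg. At 30 µg/kg it was measured in replicates 1 and 3 and stood at 0.10 and -0.04. Its smallest adjusted p over the doses was 0.499, in the fit of probes with both arrays in at least 2 pairs per dose. Its highest ratio, 0.55, is that of the 0.3 µg/kg animal of replicate 2.

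Of the repressors of Arntl, Nr1d1 was at -0.28, 0.41 and -0.10 at 10 µg/kg and at -0.33, 0.31 and -0.18 at 30 µg/kg. Its repeatable probe gave -0.94, 1.11 and -0.28, and then -1.09, 0.89 and -0.70. Replicate 2 was above 0 and replicates 1 and 3 were below it, at both doses. Nr1d2 was at -0.45, 0.41 and 0.27 at 10 µg/kg and at -0.55, -0.12 and 0.10 at 30 µg/kg. It shares with Nr1d1 the negative sign in replicate 1, and its mean of -0.19 ± 0.33 (SD, n = 3) at 30 µg/kg was not called (adjusted p = 0.882). Dbp, the D-box activator and a direct read-out of ARNTL and CLOCK, was at -0.19, 0.37 and 0.18 at 10 µg/kg and at -0.21, -0.17 and -0.02 at 30 µg/kg. All 3 animals were below 0 at the top dose, and their mean of -0.13 was smaller in size than its standard error of 0.18 (limma adjusted p = 0.765).

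Of the genes of the repressor complex, Per1 and Per2 had signs opposite to those of Nr1d1 at both doses. Per2 was at 0.30, -0.08 and 0.30 at 10 µg/kg and at 0.58, -0.30 and 0.44 at 30 µg/kg. Its repeatable probe gave 0.65, -0.46 and 0.59, and then 0.91, -0.84 and 0.69. Here replicate 2 was below 0 and replicates 1 and 3 above it. Per1 was at 0.34, -0.47 and 0.06 at 10 µg/kg and at 0.26, -0.72 and 0.48 at 30 µg/kg. Cry1 was at -0.005, -0.17 and 0.11 at 10 µg/kg and at 0.04, -0.38 and 0.16 at 30 µg/kg. Per3, the Per gene that is not required for rhythm in mice, was at -0.68, 0.33 and -0.38 at 10 µg/kg and at -0.37, 0.54 and -0.23 at 30 µg/kg. Its signs are those of Nr1d1, not of Per1 and Per2. Per2 had the smallest slope p of the members, with a slope of 0.10 ± 0.05 (SE) per log10 unit of dose (limma adjusted p = 0.373). The Per2 probe whose dye swaps disagree was called at 30 µg/kg when tested on its own, at 0.25, 0.24 and 0.18 (adjusted p = 0.0413 over all probes, of which 2.27% were called), while the repeatable Per2 probe was not (adjusted p = 0.779).

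Because the replicates diverged at the top doses, the slope on dose was compared between the 3 vehicle animals, a test added after the values were seen. No member was called (0 of 9, against 0.0153% of genes). The smallest adjusted p-values were 0.166 for Nr1d1, 0.190 for Clock, 0.199 for Per1 and 0.204 for Per2 (limma). Without the animal that stands apart they were 0.109, 0.159, 0.111 and 0.133, and 0.023% of genes were called. The repeatable Nr1d1 probe had slopes of -0.30, 0.29 and -0.26 per log10 unit of dose in replicates 1, 2 and 3 (limma adjusted p = 0.109 over all probes, of which 0.0112% were called, and 0.0786 without that animal). A vehicle animal's own level shifts its 8 ratios alike and does not enter a slope, and each of these slopes rests on 1 treated animal per dose.

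**Figure D2:**
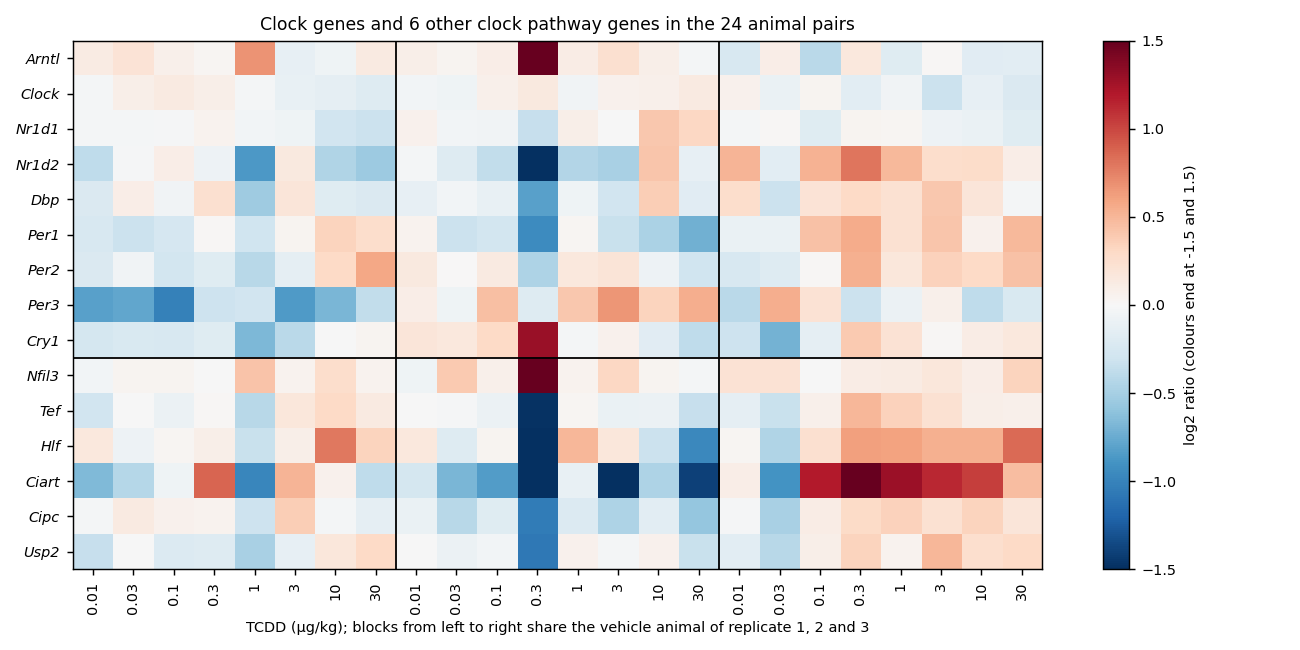
Log2 ratio (colour) of 9 clock genes, above the line, and 6 other clock pathway genes, below it, in the 24 pairs, ordered by dose within each vehicle animal. The 0.3 µg/kg column of the middle block holds Arntl (1.73), Cry1 (1.30) and Nfil3 (2.43) far above 0 and Nr1d2 (-3.18), Ciart (-2.51) and Hlf (-1.57) far below it.

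In the 0.3 µg/kg animal of replicate 2, both arrays gave the same picture. Arntl was at 1.66 with the treated animal in Cy5 and at 1.81 with it in Cy3. Nr1d2 was at -3.28 and -3.07, and Cry1 at 1.36 and 1.24. Relative to the median of the other 7 animals, Nr1d2 was the gene with the second largest displacement of all 13065 (-2.99, rank 2), Arntl ranked 18 (1.64) and Cry1 51 (1.24). Dbp (-0.70, rank 242), Per1 (-0.62, rank 327), Per2 (-0.60, rank 355) and Per3 (-0.60, rank 360) were each below the range of the other 7 animals. Nr1d1 differed by -0.41 (rank 962). The log2 ratio of the repeatable probe was -0.95 for Nr1d1 and -1.03 for Per2. Clock stood at 0.15, beside the upper end of the other 7 at 0.14 (rank 8313). The second probe of Cry1, which lacks values on some arrays, stood at 0.87. So Arntl, Npas2 and Cry1 were high, the other members except Clock were low, and 7 of the 9 members were among the 5% of genes farthest from the other animals. Counted in the same way, the other pairs held 0 to 6 such members, with 6 in the 0.03 µg/kg pair of replicate 3 and 5 in the 1 µg/kg pair of replicate 1.

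Clock pathway genes outside the members were displaced in the same animal. Ranks are again those of the difference from the other 7 animals, and values are log2 ratios of the animal. Nfil3, the repressor of D-box genes, was at 2.43 and ranked 4. Ciart, a repressor of ARNTL and CLOCK, was at -2.51 and ranked 8. Hlf (-1.57, rank 19) and Tef (-1.49, rank 33), which belong with Dbp to the D-box activators, were low as well. Usp2, a deubiquitinase under clock control, stood at -1.07 (rank 74) and Cipc, an inhibitor of CLOCK, at -1.05 (rank 148). Cry2 (0.02), Csnk1d (0.00) and Sirt1 (-0.03) lay near 0. Of the 25 other clock pathway genes measured, 10 were among the 5% of genes farthest from the other 7 animals. That count was also 10 in the 3 µg/kg pair of replicate 2 and 9 in the 0.03 µg/kg pair of replicate 3, and it ran from 1 to 8 in the rest, so it does not single out this animal. The displacement was not limited to the clock, since the largest difference from the other animals was that of Bok, a BCL2 family gene (3.25), and the transporter genes Abcb1a (-2.40), Abcb4 (-1.95) and Abcc2 (-1.66) were among the 20 largest. The medians of the cell type marker lists were near 0 in this pair. They were -0.02 for exocrine pancreas (11 of 21 markers measured), -0.05 for plasma cells (9 of 11) and -0.04 for T cells (11 of 13). For smooth muscle the median was 0.02 (9 of 10), for enterocytes -0.003 (12 of 12) and for stem and cycling crypt cells -0.13 (7 of 12). A median does not show single markers, and Slc5a1, a gene of the enterocyte list, stood at -1.59. The medians of this animal's arrays as deposited were both -0.07, within the range of all arrays. Cyp1a1 was at 0.21.

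**Figure D3:**
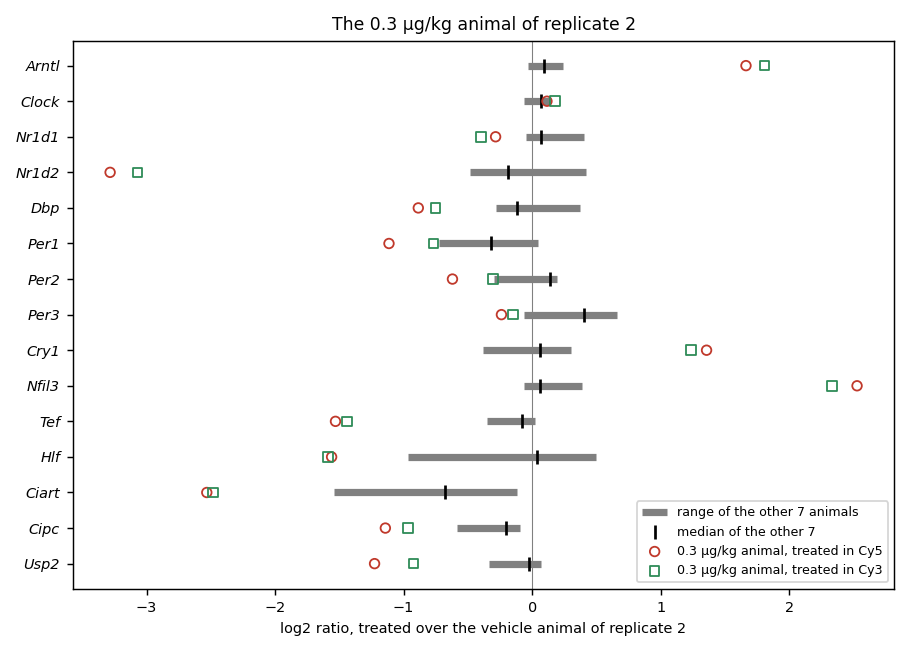
Log2 ratio (horizontal axis) of clock and clock pathway genes in the 0.3 µg/kg animal of replicate 2, with its 2 arrays as open symbols, over the range (grey bar) and median (tick) of the 7 other animals set against the same vehicle animal. Both arrays put Nr1d2 near -3 and Arntl above 1.6, outside the grey bars, while Clock stays within or beside its bar.

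Other animals had smaller displacements. In the 1 µg/kg animal of replicate 1, Arntl was at 0.67 and Nfil3 at 0.43, while Nr1d2 was at -0.86, Dbp at -0.53, Per2 at -0.42, Per1 at -0.29 and Per3 at -0.29. Cry1 was at -0.67 there, opposite to its sign in the animal at 0.3 µg/kg. In the 0.03 µg/kg animal of replicate 3, Cry1 was at -0.71, Dbp at -0.32 and Ciart at -0.90, while Per3 was at 0.55 and Arntl at 0.10. All 6 members of the negative and output arm (Nr1d1, Nr1d2, Dbp, Per1, Per2 and Per3) were below 0 in 3 of the 24 pairs, those at 0.3 µg/kg of replicate 2 and at 1 and 0.01 µg/kg of replicate 1, and Arntl was above 0 in each of the 3. Cry1, a gene of the repressor complex, is not counted among these 6. In those 3 pairs, in that order, it stood at 1.30, -0.67 and -0.26. In no pair were all 6 above 0. Over all pairs, Arntl was below 0 in 2 of 8, 1 of 8 and 5 of 8 for replicates 1, 2 and 3. Its positive sign in those 3 pairs, which are of replicates 1 and 2, was therefore the common one.

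Whether the arms moved oppositely was asked across animals. For each gene the mean of the 8 ratios to the same vehicle animal was removed, since these 8 share that animal, and genes were compared over the 24 pairs by a permutation test within vehicle animals (two-sided, 100000 resamples), with p-values adjusted over all 36 pairs of the 9 members. Arntl and Dbp were negatively related (r = -0.67, p = 0.0040, adjusted p = 0.0178; Spearman rho = -0.40, p = 0.042, adjusted p = 0.187). They had opposite signs in 16 of 24 pairs. The relation was r = -0.71, -0.83 and -0.18 within the vehicle animals of replicates 1, 2 and 3 (n = 8 each, given as descriptions). Without the 2 pairs farthest from the median on Arntl it was -0.27, so it rests on them. Without the 0.3 µg/kg animal of replicate 2 alone it was -0.44 (permutation p = 0.054, adjusted p = 0.140), and -0.22 within the vehicle animal of replicate 2. The call also ended without replicate 1 (r = -0.68, permutation adjusted p = 0.125) and without replicate 2 (-0.49, adjusted p = 0.215). Arntl and Nr1d2 gave r = -0.88 (permutation adjusted p = 0.0178; rho = -0.62, adjusted p = 0.0321), but -0.44 without that animal (adjusted p = 0.139). Among all 13064 other genes, Nr1d2 was the 3rd most negatively related to Arntl with the animal and the 302nd without it, and Dbp the 91st and the 300th.

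The rest of the arms showed less. Arntl gave r = -0.47 with Per1 (permutation adjusted p = 0.130), -0.44 with Nr1d1, -0.32 with Per2 and -0.18 with Per3, and without the one animal these were -0.16, 0.15, -0.02 and 0.31. The signs of Nr1d1 and Per3 thus turned. Arntl and Cry1 went from 0.55 to -0.17. Arntl and Clock, whose products form one activator, gave r = 0.10 (permutation adjusted p = 0.773), and -0.19 without the animal. Clock gave -0.02 with Dbp and -0.04 with Nr1d2, and 0.13 and 0.35 without the animal. It opposed both Per1 (r = -0.64, permutation adjusted p = 0.0107) and Per2 (r = -0.68, adjusted p = 0.0056). These relations were nearly as large without the animal that stands apart (-0.62 and -0.67, adjusted p = 0.0145 and 0.0126), and within the 3 vehicle animals they were -0.71, -0.85 and -0.47 for Per1 and -0.67, -0.69 and -0.71 for Per2. The repeatable probe of Clock gave -0.65 with Per1 and -0.67 with the repeatable probe of Per2, and its least repeatable probe -0.40 and -0.32.

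**Figure D4:**
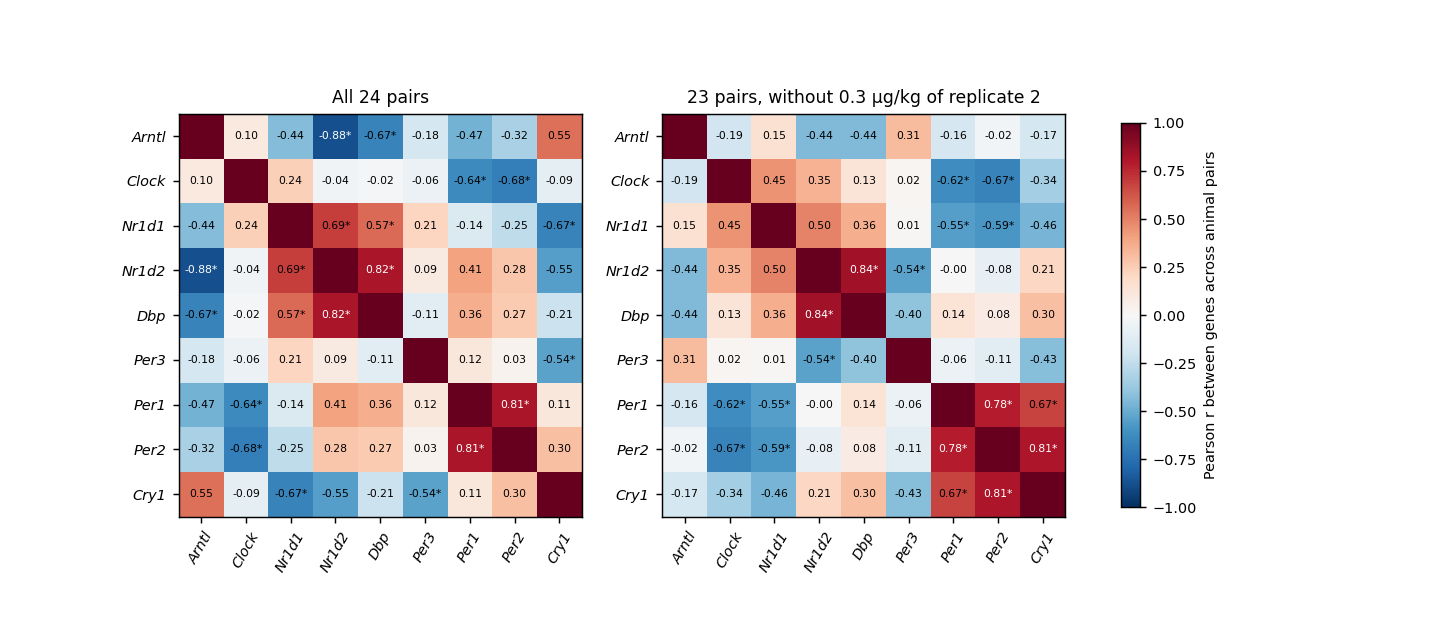
Pearson r (colour and number) between the 9 clock genes across all 24 pairs, left, and without the 0.3 µg/kg animal of replicate 2, right, each after removal of the vehicle animal's mean; an asterisk marks an adjusted permutation p under 0.05. The negative values of Arntl with Nr1d2 and Dbp lose the asterisk at right, while Nr1d2 with Dbp (0.84) and Per1 with Per2 (0.78) keep it.

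Within the negative and output arm, 2 pairs of members were related with and without the animal. Nr1d2 and Dbp varied together (r = 0.82, permutation adjusted p = 0.00018; rho = 0.71, adjusted p = 0.0032). Without the animal that stands apart r was 0.84 (adjusted p = 0.00036), and Nr1d2 was then the gene most like Dbp among all 13064 others. Within the vehicle animals of replicates 1, 2 and 3 it was 0.89, 0.91 and 0.77. Per1 and Per2 were the other (r = 0.81, adjusted p = 0.00018; 0.78 without the animal, adjusted p = 0.00036), at 0.81, 0.91 and 0.79 within the vehicle animals. Across these pairs of genes no relation passed. Over all pairs r was 0.41 for Nr1d2 and Per1, 0.28 for Nr1d2 and Per2, 0.36 for Dbp and Per1 and 0.27 for Dbp and Per2 (permutation adjusted p = 0.251 to 0.374). Without the animal these were -0.003, -0.08, 0.14 and 0.08 (adjusted p = 0.721 to 0.989). Cry1 was related to Per1 and Per2 without that animal (r = 0.67 and 0.81, adjusted p = 0.0049 and 0.00036), against 0.11 and 0.30 with it (adjusted p = 0.773 and 0.300).

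**Figure D5:**
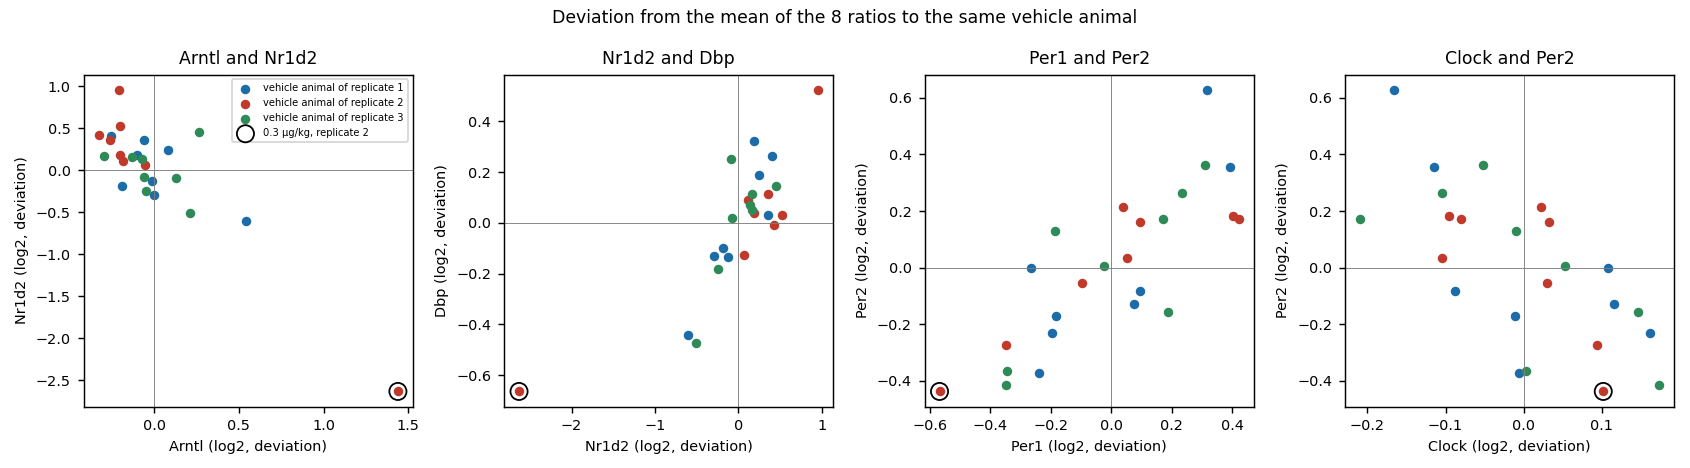
Deviation of 1 clock gene against another (both axes log2, 1 point per animal pair, coloured by vehicle animal), with the 0.3 µg/kg animal of replicate 2 ringed. That animal lies alone in the plot of Arntl and Nr1d2, and lies along the trend of the other points for Per1 with Per2.

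Nr1d1 and Nr1d2, which encode receptors with the same target elements, were related over all pairs (r = 0.69, permutation adjusted p = 0.0136) and less without the animal (0.50, adjusted p = 0.0738). Nr1d1 opposed Per2 and Per1 without it (r = -0.59 and -0.55, adjusted p = 0.0145 and 0.0424), where all pairs gave -0.25 and -0.14. Between the repeatable probes of Nr1d1 and Per2 r was -0.80 without the animal and -0.48 with it. Per3 gave r = 0.12 with Per1, 0.03 with Per2 and -0.11 with Dbp, and -0.06, -0.11 and -0.40 without the animal (permutation adjusted p = 0.162 for Dbp). It opposed Cry1 over all pairs (-0.54, adjusted p = 0.0347; -0.43 without the animal, adjusted p = 0.152). With Nr1d2 it gave 0.09 over all pairs and -0.54 without the animal (adjusted p = 0.814 and 0.0485). In all, 10 of the 36 relations passed with the animal, 9 without it and 4 in both, namely Nr1d2 with Dbp, Per1 with Per2, and Clock with Per1 and Per2. When the 2 genes were read on different arrays of each pair, so that no array noise was shared, those 4 stood at 0.69, 0.76, -0.48 and -0.54, and without the animal at 0.58, 0.73, -0.46 and -0.54. Their adjusted p without it was 0.0093, 0.00018, 0.0594 and 0.0117, so that of Clock and Per1 did not pass. The share of all gene pairs that would pass was not computed. Over all 24 animal pairs, 0.0612% of genes had a larger r in size with Dbp than Nr1d2, and 4.15% than Nr1d1. With Arntl the shares were 0.0230% for Nr1d2 and 1.32% for Dbp. Without the animal that stands apart, the shares with Arntl were 6.80% for Nr1d2 and 6.78% for Dbp. Those with Dbp were then 0% for Nr1d2 and 19.9% for Nr1d1.

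Most of the clock genes varied between animals more than the median gene, while Clock (SD 0.11, above 29.6% of genes) varied less. After removal of the vehicle animal's mean, the SD over pairs was 0.69 for Nr1d2, above that of 99.7% of genes, 0.38 for Arntl (97.4%) and 0.38 for Cry1 (97.2%), against a median of 0.14 over all genes. Per3 (0.31), Per1 (0.29), Per2 (0.29) and Dbp (0.27) were above 92.5 to 94.7% of genes, Nr1d1 (0.16) above 68.0%. Without the one animal, Nr1d2 (0.32) was above 95.7%, Cry1 (0.28) above 93.1%, Dbp (0.23) above 88.6%, Arntl (0.19) above 79.8% and Nr1d1 (0.14) above 53.5%.

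The ratios also differed with the vehicle animal to which they refer. Against the vehicle animal of replicate 1, Per3 was below 0 in 8 of 8 treated animals, with a mean of -0.64 ± 0.28 (SD, n = 8), and against that of replicate 2 it was at 0.28 ± 0.30, with -0.08 ± 0.34 for replicate 3. The first of these groups lay from -1.02 to -0.29 and the second from -0.19 to 0.66. The share of all genes with 2 such separate groups was not computed. Per1 was at -0.06 ± 0.26, -0.37 ± 0.34 and 0.25 ± 0.26. Without the animal that stands apart, the means against the vehicle animal of replicate 2 were 0.35 for Per3 and -0.29 for Per1. Per3 and Per1 were called (limma adjusted p = 0.0019 and 0.0215), 2 of 9 members, where 22.1% of all genes were called, so 2 of 9 is near the background. The call of Per3 ended without replicate 1 (adjusted p = 0.157), and that of Per1 without replicate 1, 2 or 3 (0.0562, 0.0633 and 0.222), with the treated animal in Cy3 only (0.137) and without the pancreas pairs (0.0678). Without the animal that stands apart, Per3 and Per1 were called (adjusted p = 0.0014 and 0.0385) and Nr1d2 too (0.0206, against 0.132 with it), at -0.26, -0.17 and 0.35, against a background of 20.6%. The vehicle animal and anything else that its replicate number stands for cannot be told apart.

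Further clock pathway genes were read from a list of 42 names, of which 25 were measured on all arrays. The list includes the older names of Noct and Ciart, which match no row of their own. No gene of the 25 was called at any dose from 0.01 to 10 µg/kg, on the slope or among the doses. At 30 µg/kg 1 was called, Alas1, the first enzyme of heme synthesis and a clock output in the liver, at 1.32, 0.87 and 0.23 (mean 0.81 ± 0.55, SD, n = 3; limma adjusted p = 0.0048). All 3 animals were above 0. The call ended without replicate 1 (limma adjusted p = 0.197) and without replicate 2 (0.118). Without the 2 pancreas pairs at 30 µg/kg, only replicate 2 was left at that dose, at 0.87. The 25 genes had a median mean of 0.02 at that dose, beside 0.01 for all genes. The 5 smallest slope p-values belonged to Sirt1 (-0.04 per log10 unit of dose), Bhlhe41 (0.04), Usp2 (0.10), Ces2a (-0.11) and Alas1 (0.11), with adjusted p of 0.369 to 0.473. Between vehicle animals 8 of the 25 were called, against 22.1% of genes, and these were Ciart, Cipc, Csnk1e, Nampt, Gsk3b, Klf10, Ppara and Ces2a. Ppara, the fatty acid receptor, had the smallest adjusted p (0.000223), with means of 0.32, -0.68 and 0.27 against the vehicle animals of replicates 1, 2 and 3. Ciart was at -0.13, -0.98 and 0.74 (adjusted p = 0.0111). Nampt, the NAD salvage enzyme under clock control, was at -0.32, -0.08 and 0.26 (adjusted p = 0.0032).

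The genes most like Arntl over the 24 pairs, by the same r, were Nfil3 (0.90), Dpf3 (0.87), Aagab (0.84), Apol7a (0.83) and Bok (0.83). Those most opposed were Slc5a1, the sodium-glucose transporter of the brush border (-0.93), Olfr1053 (-0.88), Nr1d2 (-0.88), Rbm3, a cold-inducible RNA-binding protein (-0.87), and Abcc2 (-0.85). Without the one animal these ran from 0.22 (Bok) to 0.55 (Dpf3) and from -0.43 (Abcc2) to -0.62 (Slc5a1), and none was then among the 5 genes at either end. The genes most like Dbp were Epha1 (0.84), Stk10 (0.84), Foxj3 (0.83), Slc5a4a (0.83) and Clcn3 (0.82), and those most opposed were Stk38 (-0.84), Adam30 (-0.83), Terf2 (-0.76), Fam160b2 (-0.75) and Sapcd2 (-0.74). Without the animal the 10 genes named for Dbp kept values of 0.72 to 0.80 and of -0.65 to -0.77. These are descriptions across genes that share arrays and vehicle animals.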

How the data were processed

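RNA of jejunal epithelium was measured on 48 two-colour arrays, 2 dye-swapped arrays for each of 24 animal pairs. The deposited values are log ratios, taken as log2; their base, sign, software and normalization are not given in the sources used here, and 25.0% of cells are empty. Probes were named through the array's annotation and GRCm38.p6 gene identifiers. Each array was centred on its median, the 2 arrays of a pair were averaged, and 17836 complete probes with 1 symbol were averaged to 13065 genes. Dose means, the slope on log10 dose, and differences among doses or vehicle animals were fitted with limma 3.58.1 (R 4.3.3, statmod 1.5.0, lmFit and eBayes) and adjusted by Benjamini-Hochberg over all genes. The fit and the relation test were tested on simulated data. Arrays hold 27341 to 33126 values; the number of animals limits the precision.

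Same-numbered ratios share a vehicle animal, per the labels. With dose means removed they correlated at 0.28 on average across genes (84 combinations), against -0.14 for others (168). Because the mean of each dose was removed, the value for the others is forced to be negative when the first is positive. It is therefore no separate comparison. The pairing comes from the labels. The replicate block is an alternative, and the main fit has none. Named genes were all members, the other clock genes that were called or had the 5 smallest slope p-values, and the 5 most and least like Arntl and Dbp, skipping predicted and clone names. Further genes were named outside this rule for the 0.3 µg/kg animal of replicate 2, among them Tef, Hlf, Cry2, Csnk1d, Abcb1a and Abcb4. Tef and Hlf are also drawn in the figures. Members and lists were chosen with earlier results of these data known.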

Additional observations from a re-analysis of the deposited data

Results flagged for a closer look

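The groups of a dose hold 3 animals, too few to single out a sample, so each member was looked at over the 8 treated animals set against the same vehicle animal, which differ in dose. Of 27 such groups of 8, 4 held a value whose gap to the nearest other exceeded Dixon's critical share of the whole range. Chance flags about 1 in 20 groups where values are normally spread and groups are independent, and here the members share animals. The share of such groups over all genes was not computed. In the 0.3 µg/kg animal of replicate 2, Arntl at 1.73, Nr1d2 at -3.18 and Cry1 at 1.30 met this, with gaps of 0.845, 0.751 and 0.591 of the range. In the 1 µg/kg animal of replicate 1, Arntl at 0.67 met it (0.578).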

How the results depend on the processing

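The absence of a called slope and of a called difference among doses held in each of the 15 alternatives run for each. The count of calls over the doses was 1 instead of 0 with the treated animal in Cy3 only (Arntl at 0.3 µg/kg, adjusted p 0.0379) and 1 with each probe on its own (Per2 at 30 µg/kg). With the vehicle animal as replicate block it stayed 0, as did slope and dose differences, although called slopes over all genes went from 77 to 216 and called dose differences from 36 to 83. Differences among vehicle animals were called for 1 member with Cy3 only and 1 without the 2 pancreas pairs, and for 0 to 2 without 1 replicate, against 2. Of the other clock genes, 9 were called in any test, and 3 to 5 without 1 replicate. Of the 9, 8 were called among vehicle animals, where the share over all genes also fell without 1 replicate, as just given. The relation of Arntl and Dbp kept its sign in all 15 alternatives and no longer passed after quantile normalization (-0.53), in Cy3 only (-0.52), without the 2 pairs farthest on Arntl (-0.20 with vehicle animal means taken anew) and without the 0.3 µg/kg animal of replicate 2 (-0.44). Leaving out single replicates gave -0.77 to -0.49, and it no longer passed without replicate 1 or without replicate 2 (adjusted p 0.125 and 0.215). The cause was not tested. Nr1d2 with Dbp and Per1 with Per2 passed in 15 of 15, Clock with Per2 in 13 and Clock with Per1 in 11. The vehicle animal call of Per1 ended in Cy3 only, without the pancreas pairs and without any 1 of the 3 replicates, that of Per3 without replicate 1. The call of Alas1 also ended after quantile normalization (adjusted p 0.0940) and in Cy5 only (0.0601). The single-animal removal, probe-wise tests, the test of slopes between vehicle animals and reading genes on different arrays were chosen after seeing the data. Only 3 vehicle animals, 3 animals a dose and ratios without intensities limit what can be seen.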
